A study of Mus musculus with 15 samples.

Results

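The 35 genes described here belong to the unfolded protein response and to the protein folding and degradation machinery of the endoplasmic reticulum (ER), and were followed in RNA sequencing libraries of mouse aorta. They were taken by name from a table of 34714 genes, and all 35 were found. They are 8 chaperones and co-chaperones of the ER lumen, 7 lectin chaperones, disulfide isomerases and related folding genes, 6 stress sensors and transcription factors, 4 target genes of ATF4 and CHOP, 8 genes of ER-associated degradation, and 2 genes of the translocon and the ER membrane. The libraries form 3 groups of 5, all from mice of WT genotype. Sham mice were the controls and received neither agent. AngII mice were made hypertensive by infusion of angiotensin II, a peptide that constricts vessels, at 750 ng/kg per minute. AngII + RvE1 mice received that infusion and resolvin E1 (RvE1; E1 in the sample labels), a lipid mediator made from eicosapentaenoic acid, by intraperitoneal injection at 2 µg/kg per day. The sources used here do not give strain, sex, age or the length of the infusion. Nothing in the labels says whether each library is a separate animal, and p-values therefore reflect only the spread among these libraries, which may be technical.

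Proteins that enter the secretory pathway fold in the ER with the help of chaperones such as BiP (gene Hspa5) and GRP94 (Hsp90b1). When unfolded proteins accumulate, 3 membrane sensors act: IRE1 (Ern1) splices the mRNA of Xbp1, PERK (Eif2ak3) phosphorylates a translation initiation factor and thereby favours translation of ATF4, and ATF6 is cut into a transcription factor. ATF6 and spliced XBP1 raise the transcription of chaperone and degradation genes through ER stress response elements, while ATF4 acts on amino acid and redox genes, often at composite sites shared with C/EBP factors. The response is strong in secretory cells, above all in plasma cells, and the vessel wall also carries a secretory load because smooth muscle cells and fibroblasts make matrix. Splicing of Xbp1, phosphorylation of PERK and cleavage of ATF6 are not measured by mRNA levels.

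The promoters of 14 of these genes hold elements of the response, which are shown here as the sequence context of the values that follow. RefSeq promoters (GRCm38.p6, 250 bases before to 50 after the start site) were available for 31 of the 35 genes; Hyou1, Manf, Atf6 and Derl1 had no entry. The ER stress response element ERSE was searched as CCAAT and CCACG with any 9 bases between them, ERSE-II as ATTGG and CCACG with any 1 base between them, the XBP1-type element UPRE as TGACGTGG and the composite C/EBP-ATF4 element CARE as TGATGNAAN, each on both strands. ERSE was present in 9 of the 31 genes (29.0%), against 37 of 27025 genes of the reference (0.137%). ERSE-II was present in 2 (6.45%, against 0.0444%) and CARE in 4 (12.9%, against 4.496%), while the UPRE letters were in none of the 31 windows, against 0.714% of all. A match is a match of letters and not a measured binding site. The sites below come from genes whose values are described further on, with the element in capitals, 5 flanking bases on each side, and the strand on which the element reads as printed.
Hspa5 ERSE, chr2:34772020-34772048, plus strand: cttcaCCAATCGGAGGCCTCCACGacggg
Hsp90b1 distal ERSE, chr10:86705633-86705661, minus strand: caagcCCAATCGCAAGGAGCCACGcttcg
Hsp90b1 proximal ERSE, chr10:86705528-86705556, plus strand: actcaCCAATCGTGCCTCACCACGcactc
Calr ERSE, chr8:84847070-84847098, plus strand: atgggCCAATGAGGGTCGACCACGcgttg
Creld2 ERSE, chr15:88819515-88819543, minus strand: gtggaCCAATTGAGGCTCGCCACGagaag
Syvn1 ERSE, chr19:6046527-6046555, plus strand: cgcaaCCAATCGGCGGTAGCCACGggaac
Derl3 ERSE, chr10:75893237-75893265, minus strand: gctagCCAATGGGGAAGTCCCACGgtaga
Herpud1 ERSE-II, chr8:94386372-94386392, plus strand: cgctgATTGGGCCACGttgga
Dnajb11 ERSE-II, chr16:22857847-22857867, plus strand: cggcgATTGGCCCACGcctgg
Herpud1 CARE, chr8:94386311-94386329, minus strand: cgggcTGATGCAACccgcc
Trib3 CARE, chr2:152344034-152344052, plus strand: ccggcTGATGTAAAcctga
Chac1 CARE, chr2:119351043-119351061, minus strand: aggagTGATGCAACggcag
Asns CARE, chr6:7693219-7693237, minus strand: ccacaTGATGAAACttccc

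In the chaperone genes shown, the ERSE lay upstream of the start site, at bases -65 to -47 of Hspa5, -162 to -144 of Calr, -126 to -108 of Creld2 and at 2 places in Hsp90b1, -212 to -194 and -107 to -89. Dnajc3, Canx and Pdia6 also held an ERSE. Of the CARE sites, that of Trib3 (bases 14 to 22) and, of the ERSE-II sites, that of Dnajb11 (8 to 18) lay after the start site. Herpud1 was the only one of the 31 genes with elements of both the ATF6/XBP1 type and the ATF4 type. Its 250 upstream bases on chr8:94386179-94386428, plus strand, carry the CARE in reverse complement and the ERSE-II, both in capitals.
Herpud1 upstream region: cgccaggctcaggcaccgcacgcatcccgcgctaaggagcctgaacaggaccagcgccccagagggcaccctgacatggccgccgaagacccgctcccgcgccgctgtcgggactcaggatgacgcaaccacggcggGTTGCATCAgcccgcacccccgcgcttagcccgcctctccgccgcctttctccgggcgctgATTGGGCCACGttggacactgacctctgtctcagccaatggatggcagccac

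**Figure D1:**
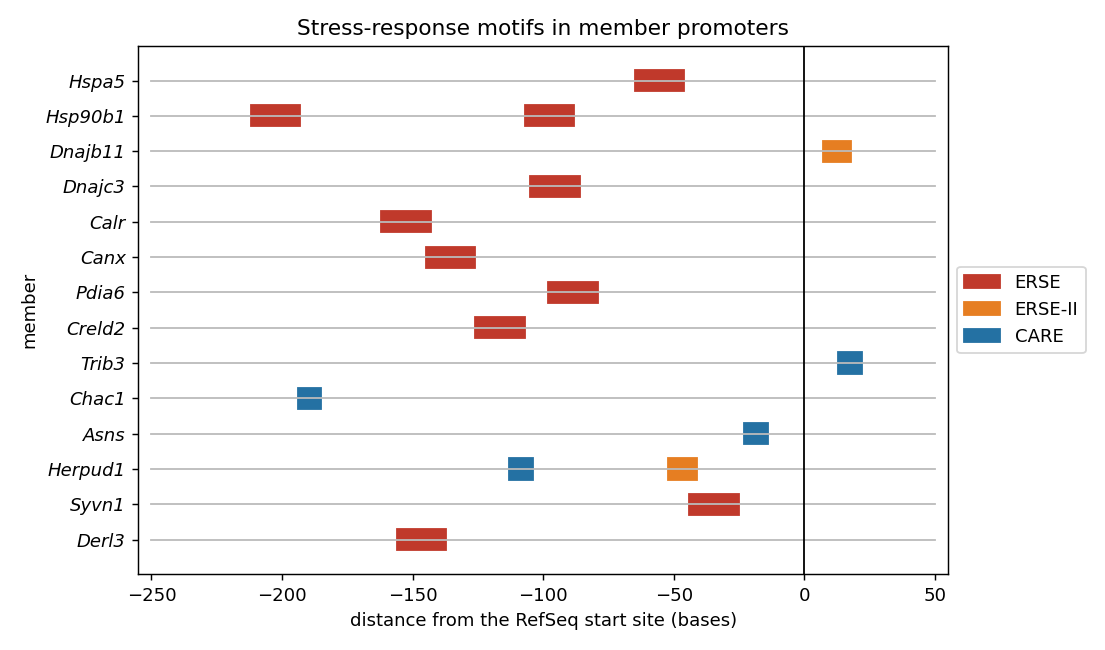
Positions of the ERSE, ERSE-II and CARE matches in the promoters of the 14 genes that hold any; the horizontal axis is the distance in bases from the RefSeq start site and each grey line is the window searched. Nearly all matches lie before the start site, those of Dnajb11 and Trib3 after it, and Herpud1 alone has 2 kinds.

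Levels are taken as FPKM, that is, scaled to transcript length and to the size of the library, although the source names no unit. Library sums ranged from 385846 to 514281, and 11466 to 12996 genes were at 1 or more. The table holds no read counts, so counting error cannot be stated. Contractile smooth muscle genes, which define the aortic wall, were present in every library, and their sum was 2721 to 17914 FPKM in Sham libraries, 1861 to 5270 in AngII libraries, and 7811 to 14107 in AngII + RvE1 libraries. The AngII libraries were not alike: 16 lymphocyte markers summed to 985, 340 and 1507 FPKM in its libraries 3, 4 and 5, and to 16.3 and 8.06 in its libraries 1 and 2. Their sum was 4.90 to 85.7 in Sham and 9.72 to 14.3 in AngII + RvE1. The sum of 8 plasma cell markers was 132, 65.2 and 459 FPKM in AngII libraries 3, 4 and 5, and between 10.3 and 34.6 in the other 12. In a tissue sample, fewer cells of a type and less RNA per cell cannot be told apart. The main differences that involve AngII are also given with these 3 libraries left out.

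Few of the ER stress genes passed the test between groups. Herpud1, which encodes a membrane protein of the ER degradation complex, was the 1 gene of 34 tested that was called higher in AngII than in Sham, and none was lower. A gene was called at an adjusted p under 0.05 in limma-trend on log2(FPKM + 1), fitted to the 12603 genes that reached 1 in at least 5 libraries; Derl3 reached 1 in 4 libraries and was not tested. Of all genes tested, 2.36% were called higher and 0.809% lower in this comparison, so the share of ER stress genes (2.94% higher) was near the background. In AngII + RvE1 against AngII none of the 34 was called, while 4.21% of all genes were called higher and 4.31% lower. In AngII + RvE1 against Sham none was called either, against 0.0159% and 0.00793% of all genes, that is 2 genes higher and 1 lower; no ER stress gene lacked overlap between those groups, as 0.825% of all genes did with higher and 0.262% with lower values. The first 2 comparisons share the AngII libraries, and each pair of comparisons shares a group.

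At an unadjusted p under 0.05 in limma-trend, 6 of the 34 were higher in AngII than in Sham (Derl2, Edem2, Eif2ak3, Herpud1, Syvn1 and Xbp1) and Wfs1 was lower, where 19.7% and 6.51% of all genes were. In AngII + RvE1 against AngII, the same 6 genes and Dnajb9 were lower and Wfs1 was higher, where 19.1% and 9.85% of all genes were; none passed in AngII + RvE1 against Sham (4.71% and 1.98% of all genes). The median log2 difference of the 34 genes was 0.20 in AngII against Sham beside 0.11 over all genes, -0.25 beside -0.11 in AngII + RvE1 against AngII, and -0.04 beside 0.01 in AngII + RvE1 against Sham. With libraries rescaled by their median ratio, the all-gene median of AngII against Sham moved from 0.11 to -0.00383, the median of the 34 genes from 0.20 to 0.07, and all-gene calls from 298 higher and 102 lower (74.5% higher) to 259 and 282 (47.9% higher). In AngII + RvE1 against AngII the share of higher calls moved from 49.4% to 63.1%. With AngII libraries 3, 4 and 5 left out, the median of the 34 genes was -0.02 in AngII against Sham beside 0.01 over all genes. Of the 34 differences, 15 then had the opposite sign, and sign changes over all genes were not counted.

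**Figure D2:**
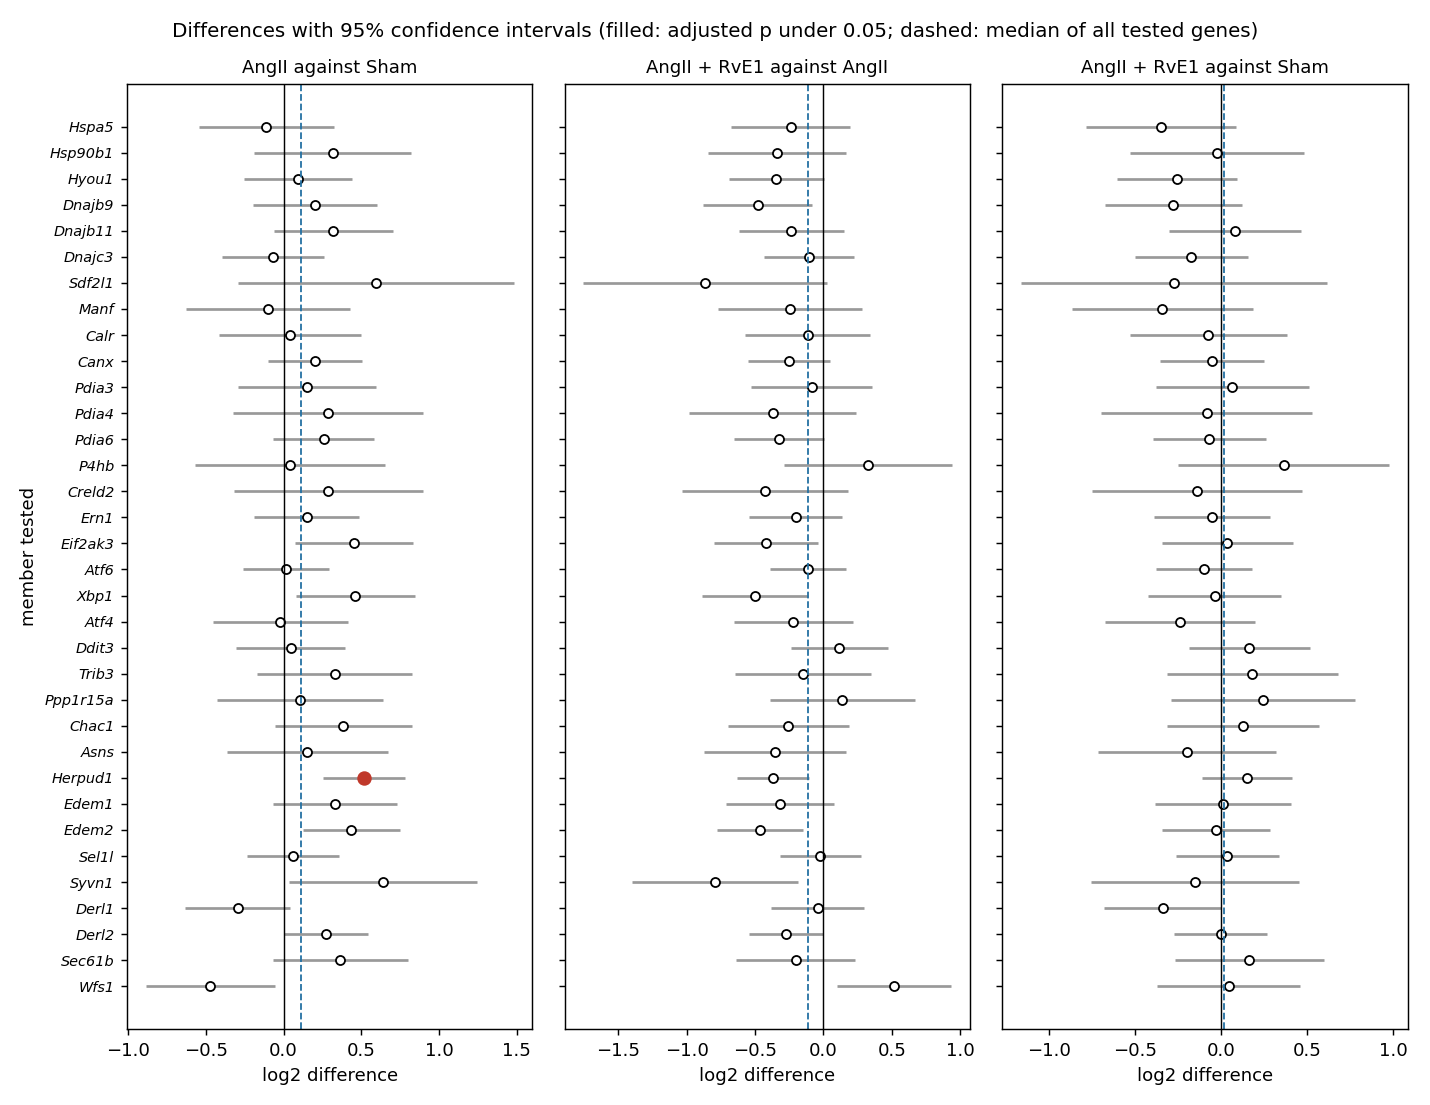
Differences in log2(FPKM + 1) with 95% confidence intervals for the 34 genes tested, in the 3 comparisons; filled points have an adjusted p under 0.05 and the dashed line is the median of all genes tested. Herpud1 in AngII against Sham (0.52) is the filled point, and most intervals span 0.

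Herpud1 (chromosome 8, 94386429 to 94395371 on GRCm38) encodes HERP, which recruits ubiquitin ligase components to the ER membrane. Its levels were 40.2, 37.0, 34.5, 42.7 and 53.0 FPKM in Sham libraries 1 to 5, 61.7, 60.4, 49.6, 61.6 and 63.7 in AngII, and 49.1, 46.2, 46.7, 47.3 and 39.5 in AngII + RvE1. In 4 of the 5 AngII libraries Herpud1 was above every library of the other groups; AngII library 3 lay below the highest Sham library but above all AngII + RvE1 libraries. The mean was 41.5 ± 7.17 FPKM in Sham, 59.4 ± 5.59 in AngII and 45.8 ± 3.67 in AngII + RvE1 (SD, n = 5 each). AngII exceeded Sham by 0.52 in log2 terms, with an SE of 0.12 and a limma adjusted p of 0.0372. AngII + RvE1 was 0.37 lower than AngII (log2 difference -0.37, 95% interval -0.63 to -0.11, limma adjusted p = 0.0718) without overlap of the 2 groups, which 5.23% of all genes showed in that direction, and differed from Sham by 0.15 (-0.11 to 0.41, adjusted p = 0.920).

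The call for Herpud1 was close to the threshold. It was lost when Sham library 1, 2 or 4, AngII library 4 or 5, or AngII + RvE1 library 1, 3 or 4 was left out, with limma adjusted p between 0.0523 and 0.102, and the difference stayed between 0.46 and 0.61 in every single omission. It was also lost without the filter on low values (limma adjusted p = 0.0532), with the replicate block (0.0733), with only the groups compared (0.133), and with rescaled libraries (log2 difference 0.38, 0.0791). Herpud1 was at 61.7 and 60.4 FPKM in AngII libraries 1 and 2, where the sums of lymphocyte markers were low. In AngII libraries 3, 4 and 5 it was at 49.6, 61.6 and 63.7, and the part of lymphocytes in its levels was not tested. Without AngII libraries 3, 4 and 5 its difference was 0.56 (SE 0.17, limma adjusted p = 0.361, 2 AngII libraries against 5), and that between AngII + RvE1 and AngII was -0.41 (adjusted p = 0.391).

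**Figure D3:**
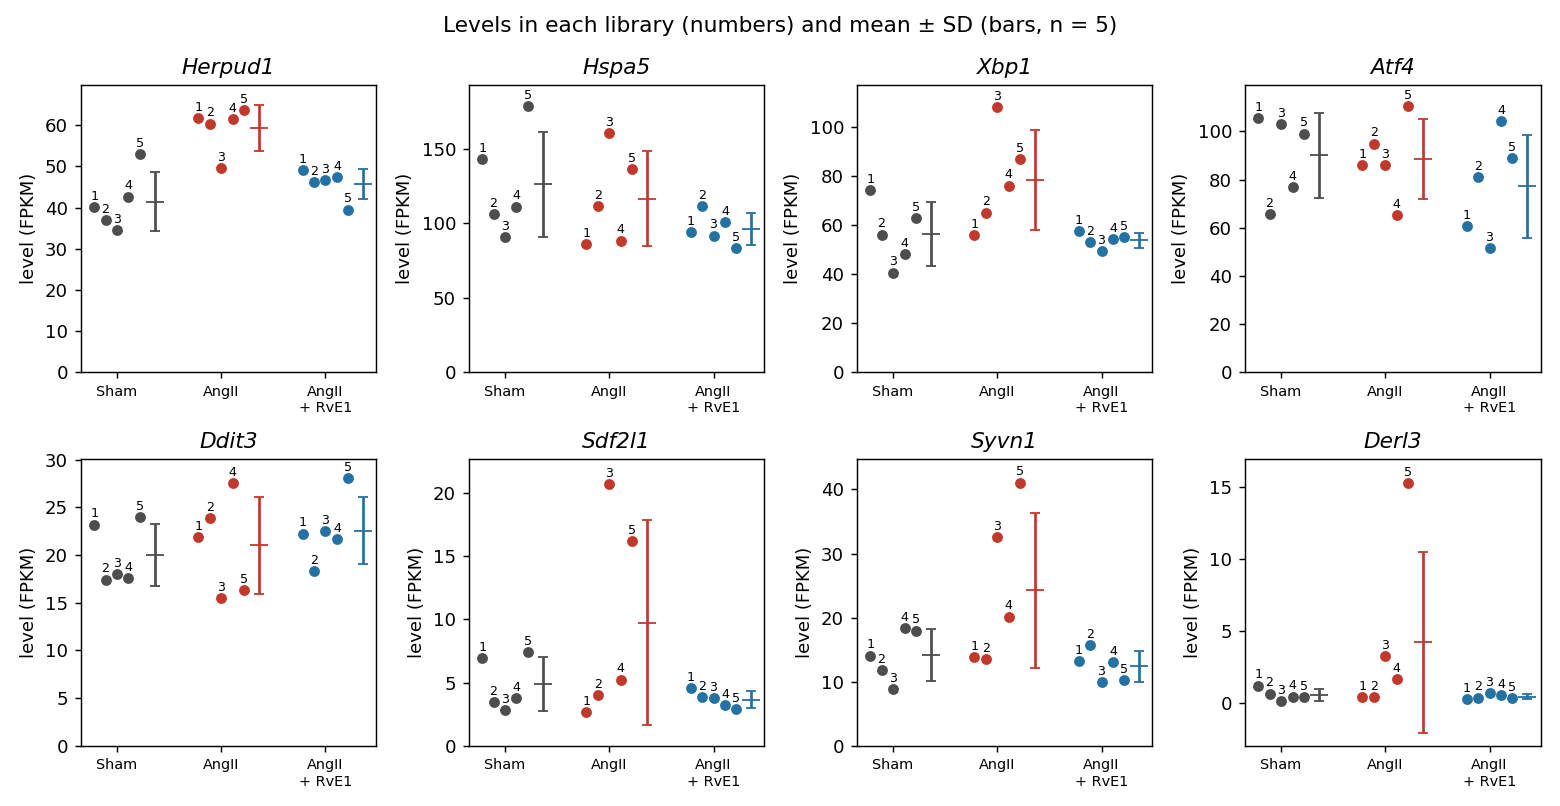
Level in FPKM of 8 genes in each of the 15 libraries (points, numbered by library) with mean ± SD per group (bars, n = 5). Herpud1 is at 49.6 to 63.7 in all AngII libraries, while Sdf2l1, Syvn1 and Derl3 are high in AngII libraries 3 and 5 and Hspa5, Atf4 and Ddit3 overlap between the groups.

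Among the chaperones of the ER lumen, no gene was called in any comparison. Hspa5, which encodes BiP, the main ER chaperone and a standard readout of ER stress, was at 143, 106, 91.0, 111 and 179 FPKM in Sham libraries 1 to 5, 86.0, 112, 161, 88.4 and 137 in AngII, and 94.4, 112, 91.8, 101 and 83.2 in AngII + RvE1. The groups overlapped throughout, and the highest level of all was in a Sham library. Hspa5 in AngII differed from Sham by -0.11 on the log2 scale (95% interval -0.55 to 0.32), AngII + RvE1 from AngII by -0.24 (-0.67 to 0.20), and AngII + RvE1 from Sham by -0.35 (-0.78 to 0.08). Without AngII libraries 3, 4 and 5 the first 2 were -0.32 and -0.03.

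Hsp90b1, Hyou1 and Manf also had overlapping groups, but their highest values were in AngII library 3. Hsp90b1, the HSP90 paralog of the ER, had its lowest and highest values at 61.7 and 127 FPKM in Sham, 72.0 and 164 in AngII, and 75.4 and 100.2 in AngII + RvE1. Hyou1, a nucleotide exchange factor for BiP, averaged 16.9 ± 3.21, 18.1 ± 3.90 and 13.9 ± 2.30 FPKM in the 3 groups. Manf, a secreted BiP cofactor, averaged 69.1 ± 13.1, 69.3 ± 33.1 and 53.7 ± 3.65 FPKM. For all 3, the AngII range enclosed or overlapped the ranges of the other groups. Hsp90b1 (164 and 158 FPKM) and Manf (116 and 91.4) were above the other 13 libraries in AngII libraries 3 and 5, where 26.2% of all genes were.

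The J-domain partners of BiP differed in their pattern. Dnajb9 (ERdj4), which binds IRE1 and unfolded clients, was at 39.0, 40.6, 27.2, 27.8 and 35.8 FPKM in AngII libraries 1 to 5, highest in libraries 1 and 2, against 22.5 to 37.3 in Sham and 19.5 to 35.2 in AngII + RvE1. Its difference of -0.48 between AngII + RvE1 and AngII was not past the threshold (95% interval -0.88 to -0.08, limma adjusted p = 0.109), and was -0.72 without AngII libraries 3, 4 and 5 (adjusted p = 0.336). Dnajb11 (ERdj3) was instead highest in AngII libraries 3 and 5, at 31.8 and 30.4 FPKM, and between 14.3 and 21.7 in the other 13. Dnajc3 (p58IPK), a co-chaperone that also inhibits PERK, averaged 16.5 ± 4.11, 15.6 ± 2.75 and 14.3 ± 0.996 FPKM in Sham, AngII and AngII + RvE1.

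Sdf2l1, which works with ERdj3 and BiP to hold back aggregation, had the largest ratio of highest to lowest level in the lumenal group. It was at 6.94, 3.43, 2.82, 3.78 and 7.43 FPKM in Sham libraries 1 to 5, 2.65, 4.01, 20.7, 5.23 and 16.2 in AngII, and 4.56, 3.83, 3.75, 3.23 and 2.88 in AngII + RvE1. AngII libraries 3 and 5 stood above all others, and AngII library 1 held the lowest value of the 15. The log2 difference of Sdf2l1 between AngII and Sham was 0.59 (95% interval -0.30 to 1.48) and became -0.38 without AngII libraries 3, 4 and 5. Sdf2l1, Dnajb9, P4hb, Creld2, Eif2ak3, Trib3, Chac1, Syvn1, Edem2, Derl3 and Wfs1 were chosen after their values were seen to be given library by library, in all groups or in AngII.

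None of the 7 lectin chaperones, disulfide isomerases and related genes was called. Calr (calreticulin) and Canx (calnexin), the lectins that retain glycoproteins until they are folded, averaged 214 ± 58.9 and 38.5 ± 7.31 FPKM in Sham, 219 ± 59.7 and 44.3 ± 7.80 in AngII, and 198 ± 23.1 and 36.6 ± 2.25 in AngII + RvE1. Both were highest in AngII library 3 and lowest in Sham library 3. The interval of the difference between AngII and Sham was -0.42 to 0.50 for Calr and -0.10 to 0.50 for Canx on the log2 scale. The differences of 0.04 and 0.20 were -0.21 and 0.03 without AngII libraries 3, 4 and 5.

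Pdia3, the isomerase that partners the lectins, had its lowest and highest values at 66.6 and 130 FPKM in Sham, 77.7 and 163 in AngII, and 89.5 and 115 in AngII + RvE1. Pdia4, an isomerase with an additional thioredoxin domain, reached 41.7 and 37.4 FPKM in AngII libraries 3 and 5, above the 11.4 to 26.7 of the other 13. Pdia6, another isomerase, reached 98.8 and 72.9 FPKM in the same libraries, against 48.2 to 70.3 in the others. All 3 showed their highest value in AngII library 3 and overlapping groups.

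P4hb, the protein disulfide isomerase that is also a subunit of collagen prolyl hydroxylase, was high in other libraries. Its levels were 158, 72.3, 47.9, 75.2 and 109 FPKM in Sham libraries 1 to 5, 58.1, 94.5, 146, 78.4 and 81.7 in AngII, and 129, 85.5, 96.9, 121 and 125 in AngII + RvE1. The highest values were in Sham library 1, AngII library 3 and most AngII + RvE1 libraries, and the lowest in Sham library 3. P4hb had a log2 difference of 0.32 between AngII + RvE1 and AngII (95% interval -0.29 to 0.94), 1 of 4 differences above 0 in that comparison, with those of Ddit3, Ppp1r15a and Wfs1. That is 11.8% of the 34 genes tested, where 35.9% of all genes were above 0.

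Creld2, an ER folding factor whose ERSE is shown above, was at 18.7, 12.1, 9.49, 12.3 and 17.7 FPKM in Sham libraries 1 to 5 and 8.97, 13.02, 28.2, 12.5 and 32.3 in AngII. In AngII + RvE1 it lay between 11.6 and 12.8 FPKM. The high AngII values were those of libraries 3 and 5, and library 1 was the lowest of all 15. Without AngII libraries 3, 4 and 5 the log2 difference between AngII and Sham went from 0.29 to -0.31, with neither past the threshold.

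Of the sensors, Ern1 (IRE1) and Atf6 had overlapping groups throughout. Ern1 averaged 1.504 ± 0.554 FPKM in Sham, 1.72 ± 0.214 in AngII and 1.37 ± 0.278 in AngII + RvE1, and Atf6 averaged 5.91 ± 1.24, 5.91 ± 0.778 and 5.37 ± 0.478. Eif2ak3, which encodes PERK, was at 2.59, 3.50, 2.27, 3.61 and 4.13 FPKM in Sham libraries 1 to 5, 3.44, 3.32, 6.64, 4.69 and 6.22 in AngII, and 3.62, 3.28, 2.89, 3.94 and 2.73 in AngII + RvE1. AngII libraries 3, 4 and 5 were above all other libraries, and libraries 1 and 2 were within the Sham range. Eif2ak3 in AngII differed from Sham by 0.45 on the log2 scale (95% interval 0.07 to 0.83, limma adjusted p = 0.130), and by 0.07 without libraries 3, 4 and 5.

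Xbp1, the transcription factor gene that IRE1 splices and that plasma cells need, followed that order. It was at 74.5, 56.2, 40.6, 48.2 and 62.9 FPKM in Sham libraries 1 to 5, 56.0, 65.2, 108, 76.2 and 87.1 in AngII, and 57.5, 53.2, 49.4, 54.2 and 55.3 in AngII + RvE1. AngII libraries 3, 4 and 5 were the highest of the 15, and the 5 AngII + RvE1 libraries were close together. The log2 difference was 0.46 between AngII and Sham (SE 0.18, limma adjusted p = 0.128) and -0.50 between AngII + RvE1 and AngII (SE 0.18, adjusted p = 0.0899). Without AngII libraries 3, 4 and 5 these were 0.13 and -0.16.

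Atf4, the factor whose translation PERK favours, was at 105, 65.5, 103, 76.9 and 99.1 FPKM in Sham libraries 1 to 5, 85.9, 94.9, 85.9, 65.2 and 111 in AngII, and 60.6, 81.0, 51.4, 104 and 88.8 in AngII + RvE1. The groups overlapped almost fully. Atf4 in AngII differed from Sham by -0.02 (95% interval -0.46 to 0.42) and AngII + RvE1 from AngII by -0.22 (-0.66 to 0.22) on the log2 scale.

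Ddit3, which encodes CHOP, the pro-apoptotic factor of prolonged ER stress, was at 23.2, 17.4, 18.0, 17.6 and 23.96 FPKM in Sham libraries 1 to 5, 21.9, 23.9, 15.4, 27.5 and 16.3 in AngII, and 22.2, 18.3, 22.5, 21.6 and 28.0 in AngII + RvE1. Its lowest 2 values of the 15 were in AngII libraries 3 and 5, where Xbp1, Sdf2l1 and Syvn1 were highest. The log2 difference of Ddit3 was 0.05 between AngII and Sham (95% interval -0.31 to 0.40), 0.12 between AngII + RvE1 and AngII (-0.23 to 0.47) and 0.16 between AngII + RvE1 and Sham (-0.19 to 0.52).

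None of the 4 targets of ATF4 and CHOP was called in any comparison. Trib3, a pseudokinase that restrains ATF4 and AKT, was at 3.92, 2.20, 3.89, 6.01 and 2.37 FPKM in AngII libraries 1 to 5, against 1.94 to 2.98 in Sham and 1.93 to 5.40 in AngII + RvE1. Chac1, a glutathione-degrading enzyme, was at 1.21, 0.987, 2.03, 2.83 and 0.694 FPKM in the AngII libraries, against 0.425 to 1.44 in Sham and 0.909 to 1.16 in AngII + RvE1. Both had their highest value in AngII library 4, and neither was above the Sham range in library 5.

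Asns, asparagine synthetase, was highest in AngII library 1 at 37.0 FPKM and averaged 26.0 ± 8.10, 28.6 ± 7.20 and 22.3 ± 6.19 FPKM in Sham, AngII and AngII + RvE1. Ppp1r15a (GADD34), which directs dephosphorylation of the initiation factor and so ends the translation block, averaged 18.3 ± 6.36, 19.1 ± 2.70 and 22.3 ± 9.31 FPKM, with its highest value, 36.8, in AngII + RvE1 library 4. The 95% intervals of the 4 genes between AngII and Sham reached from -0.43 at the lowest to 0.83 at the highest on the log2 scale, and all 4 spanned 0.

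ER-associated degradation carries misfolded proteins out of the ER to the proteasome, and its members include Herpud1, the 1 gene called. Syvn1, which encodes the ubiquitin ligase HRD1, was at 14.1, 11.8, 8.85, 18.3 and 18.0 FPKM in Sham libraries 1 to 5, 13.8, 13.6, 32.6, 20.2 and 41.1 in AngII, and 13.2, 15.8, 9.93, 13.1 and 10.2 in AngII + RvE1. AngII libraries 3, 4 and 5 were the highest 3 of the 15, and AngII libraries 1 and 2 lay in the middle of the Sham range. Syvn1 had the largest log2 difference of the 34 genes between AngII and Sham, 0.64 (SE 0.28, limma adjusted p = 0.167), which was -0.00583 without AngII libraries 3, 4 and 5. Between AngII + RvE1 and AngII it was -0.79 (SE 0.28, adjusted p = 0.0873), and -0.15 without them.

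Edem2, which trims mannose from misfolded glycoproteins, was at 11.8, 12.1, 9.26, 11.54 and 12.9 FPKM in Sham libraries 1 to 5, 11.6, 13.4, 20.2, 14.7 and 21.4 in AngII, and 11.4, 10.8, 11.6, 11.3 and 10.99 in AngII + RvE1. All AngII libraries were above all AngII + RvE1 libraries, which 5.23% of all genes showed. The lowest AngII value of Edem2, 11.64, exceeded its highest AngII + RvE1 value, 11.60, only narrowly. The log2 difference between AngII + RvE1 and AngII was -0.46 (95% interval -0.78 to -0.15, limma adjusted p = 0.0616), and -0.14 without AngII libraries 3, 4 and 5. Its relative Edem1 averaged 7.71 ± 0.628 FPKM in Sham and 7.76 ± 0.410 in AngII + RvE1, and reached 13.3 and 16.5 in AngII libraries 3 and 5, with 6.58 to 8.61 in the other AngII libraries.

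The 3 derlins, which help to form the exit channel, behaved differently from one another. Derl1 averaged 60.2 ± 14.4 FPKM in Sham, 48.0 ± 5.13 in AngII and 46.7 ± 7.02 in AngII + RvE1, with its highest values, 73.8 and 76.5, in Sham libraries 2 and 3. Derl2 averaged 8.45 ± 0.727, 10.5 ± 1.76 and 8.49 ± 1.35 FPKM. By the means Derl1 was higher in Sham and Derl2 in AngII, with neither past the threshold (limma adjusted p = 0.251 and 0.185 in AngII against Sham). Without AngII libraries 3, 4 and 5 that log2 difference was -0.37 for Derl1, from -0.30, and 0.08 for Derl2, from 0.27.

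Derl3, the derlin of secretory cells, was at 1.20, 0.639, 0.144, 0.431 and 0.379 FPKM in Sham libraries 1 to 5, 0.404, 0.402, 3.25, 1.65 and 15.3 in AngII, and 0.265, 0.368, 0.689, 0.534 and 0.317 in AngII + RvE1. AngII libraries 3, 4 and 5 were above all other libraries, and library 5 stood far above the other 2. Jchain, the joining chain of secreted immunoglobulins, was at 61.96, 27.9 and 283 FPKM in those 3 libraries, 1.33 and 0.588 in AngII libraries 1 and 2, 0.381 to 12.8 in Sham and 0.434 to 4.97 in AngII + RvE1. Of the other plasma cell markers, Mzb1, Pou2af1, Fcrl5 and Prdm1 were also highest in those 3 libraries, and Irf4, Sdc1 and Tnfrsf17 were not. Irf4 was at 20.1 FPKM in AngII library 1 and 4.66 in AngII library 4, and Sdc1 was highest in Sham library 1, at 22.9. Sel1l, the adaptor of HRD1, averaged 13.97 ± 2.84, 14.5 ± 2.15 and 14.1 ± 0.821 FPKM in Sham, AngII and AngII + RvE1, and its values in AngII libraries 3 and 5, 17.3 and 15.6, compare with a highest Sham value of 17.3.

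Sec61b, a subunit of the translocon through which new proteins enter the ER, averaged 75.7 ± 13.7 FPKM in Sham, 101 ± 33.5 in AngII and 84.7 ± 13.3 in AngII + RvE1, with 148 and 124 in AngII libraries 3 and 5. Wfs1 (wolframin), an ER membrane protein that limits ER stress signalling, was the gene with the opposite order. It was at 12.8, 10.7, 5.11, 9.09 and 13.1 FPKM in Sham libraries 1 to 5, 6.67, 7.96, 6.75, 7.83 and 4.80 in AngII, and 10.7, 9.78, 9.42, 10.3 and 10.1 in AngII + RvE1. Every AngII + RvE1 library was above every AngII library, which 5.87% of all genes showed, and Sham overlapped AngII through Sham library 3. The log2 difference was 0.52 between AngII + RvE1 and AngII (95% interval 0.10 to 0.93, limma adjusted p = 0.101) and -0.47 between AngII and Sham (-0.89 to -0.06, adjusted p = 0.144). Without AngII libraries 3, 4 and 5 these were 0.41 and -0.37.

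**Figure D4:**
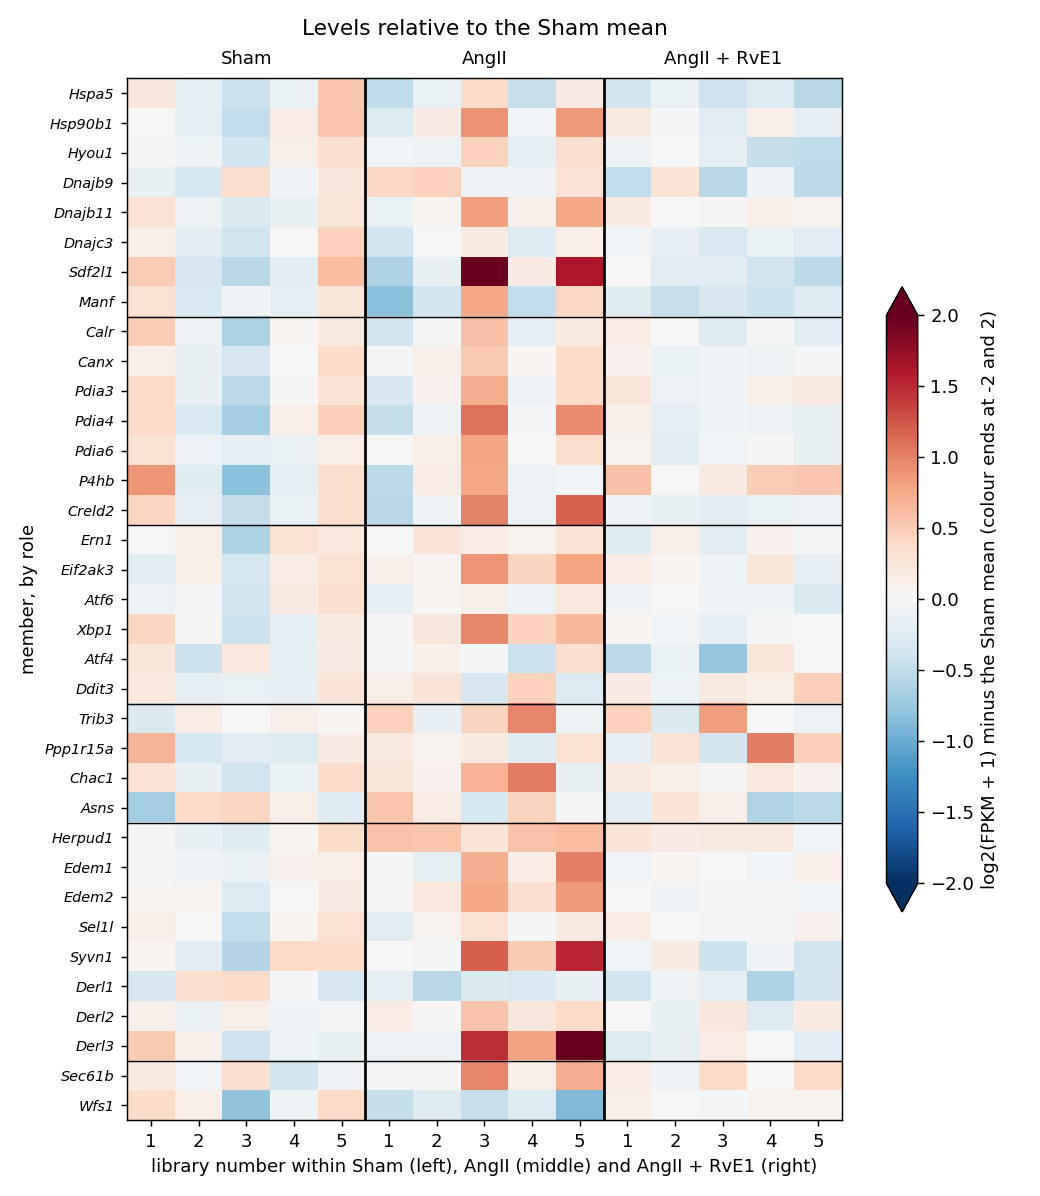
Level of each of the 35 genes (rows, grouped by role from lumenal chaperones at the top to translocon and ER membrane at the bottom) in the 15 libraries (columns), as log2(FPKM + 1) minus the Sham mean. AngII libraries 3 and 5 are red for most chaperone and degradation genes, Sham library 3 is blue for many, and Herpud1 is red in all 5 AngII libraries.

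Extreme values were concentrated in a few libraries. AngII library 3 held the highest of the 15 values for 15 of the 35 genes, among them Hsp90b1, Sdf2l1, Calr, Xbp1 and Sec61b, and for 18.3% of all genes tested. AngII library 5 held it for 7, among them Syvn1, Edem1, Edem2 and Derl3 (20.5% of all genes). Sham library 3 held the lowest value for 18 of the 35, among them Calr, P4hb, Ern1 and Sel1l (28.2% of all genes). AngII libraries 3 and 5 were both above the other 13 libraries for 16 of the 35 genes, where 26.2% of all genes were, and both above AngII libraries 1, 2 and 4 for 24 (38.3% of all genes). The share of all genes with AngII libraries 3, 4 and 5 highest, as described for Eif2ak3, Xbp1, Syvn1 and Derl3, was not counted.

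The list means on the log2(FPKM + 1) scale show the same libraries by role. The 8 lumenal chaperones averaged 5.59 and 5.49 in AngII libraries 3 and 5, 4.63 to 4.91 in AngII libraries 1, 2 and 4, 4.64 to 5.32 in Sham and 4.59 to 4.83 in AngII + RvE1. The 8 degradation genes averaged 4.33 and 4.69 in AngII libraries 3 and 5 and 3.99 in library 4, against 3.70 to 3.73 in libraries 1 and 2, 3.50 to 3.81 in Sham and 3.60 to 3.70 in AngII + RvE1. The 4 ATF4 and CHOP targets averaged 3.27, 2.95, 3.16, 3.47 and 2.92 in AngII libraries 1 to 5, 2.86 to 2.998 in Sham and 2.89 to 3.07 in AngII + RvE1, so that AngII libraries 1, 3 and 4 were above all libraries of the other groups.

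The lymphocyte and plasma cell list means and the macrophage sum were highest in AngII libraries 3 and 5, while other marker lists had other patterns. The lymphocyte list averaged 0.88, 0.54, 5.03, 3.79 and 5.67 in AngII libraries 1 to 5, and the plasma cell list 1.23, 1.02, 3.10, 2.43 and 4.18. None of the 12 lymphocyte and 3 plasma cell markers tested was called between the groups by limma-trend, though 7 and 1 were higher in AngII than in Sham and 12 and 2 lower in AngII + RvE1 than in AngII at an unadjusted p under 0.05. The filter on low values left out the plasma cell markers Mzb1, Pou2af1, Fcrl5, Tnfrsf17 and Prdm1. Mzb1 was at 24.6, 10.8 and 76.0 FPKM in AngII libraries 3, 4 and 5. The lymphocyte markers Zap70, Ms4a1, Cr2 and Ccr7 were left out too. No marker of either list was at 0 in all libraries of a group. Macrophage markers summed to 185, 366, 1273, 437 and 608 FPKM in AngII libraries 1 to 5, 162 to 206 in Sham and 179 to 230 in AngII + RvE1, and of 12 tested 5 were called higher in AngII than in Sham and 8 lower in AngII + RvE1 than in AngII. Contractile smooth muscle markers averaged 8.43, 7.21, 6.004, 7.20 and 8.02 in Sham libraries 1 to 5, 6.07, 6.92, 5.82, 6.57 and 5.54 in AngII, and 7.39 to 8.16 in AngII + RvE1, and of 15 tested 3 were called lower in AngII than in Sham and 13 higher in AngII + RvE1 than in AngII. The part of these cell types in the levels of the ER stress genes was not tested.

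**Figure D5:**
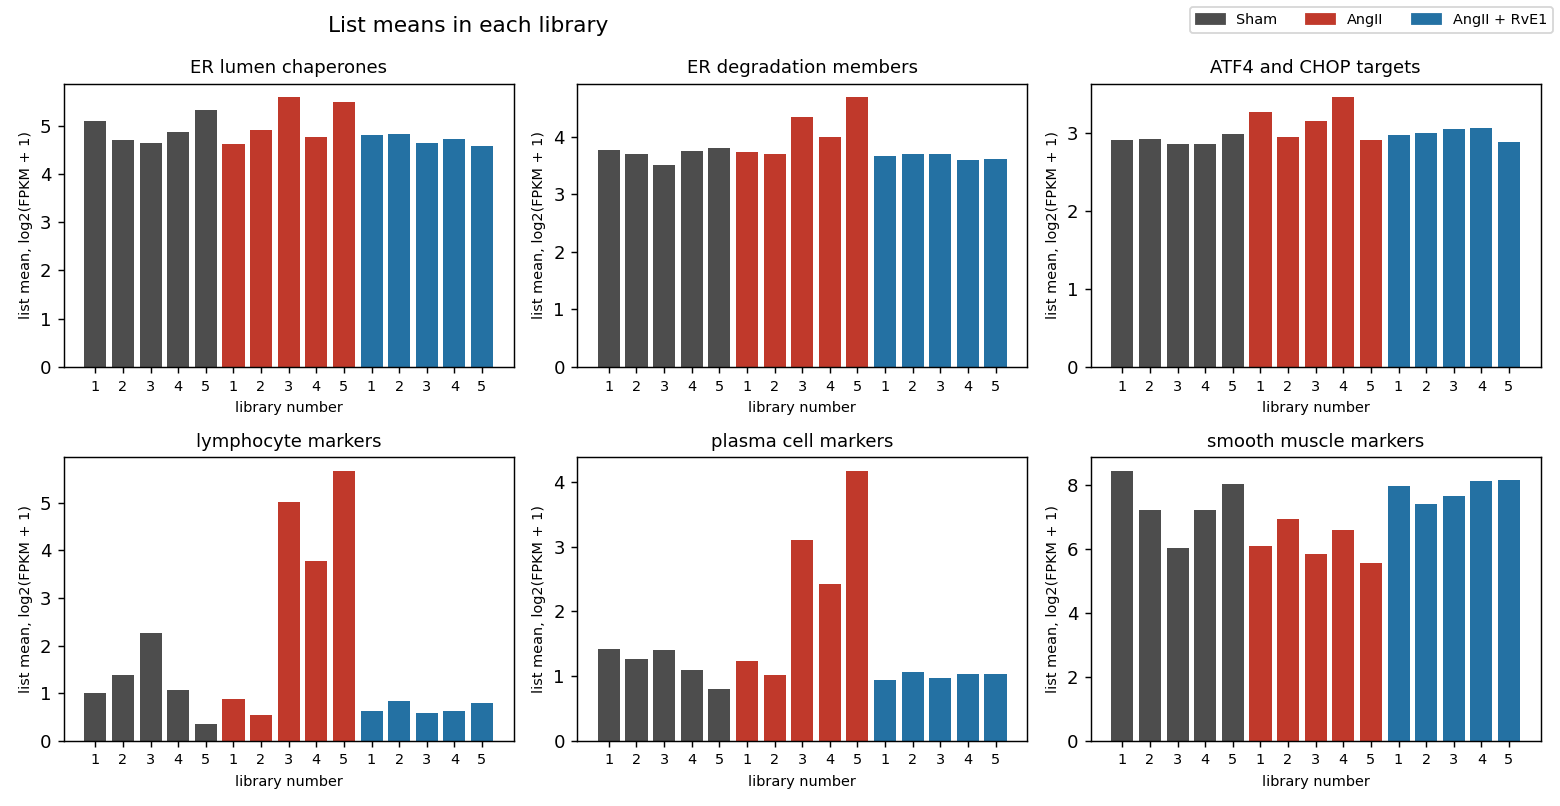
Mean log2(FPKM + 1) of 3 lists of ER stress genes (top) and of lymphocyte, plasma cell and contractile smooth muscle markers (bottom) in each library (bars, numbered within Sham, AngII and AngII + RvE1). Lumenal chaperones and degradation genes are highest in AngII libraries 3 and 5, as are lymphocyte and plasma cell markers (5.03 and 5.67, 3.10 and 4.18).

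Libraries of AngII + RvE1 were the most alike. The SD of log2(FPKM + 1) over the 5 libraries was larger in AngII than in AngII + RvE1 for 28 of the 34 genes tested, and for 68.6% of all genes. It was larger in Sham than in AngII + RvE1 for 29 of the 34 (77.8% of all genes), and larger in AngII than in Sham for 20 (45.5%). The median SD of the 34 genes was 0.31 in Sham, 0.36 in AngII and 0.16 in AngII + RvE1, beside 0.31, 0.29 and 0.21 over all genes tested. The difference in spread was not tested.

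Other genes of the same pathways were counted in 5 lists, apart from the 35. Their called genes are given with the same limma-trend fit, and no gene of any list was called in AngII + RvE1 against Sham. Of all genes tested, 2.36% were called higher and 0.809% lower in AngII against Sham, and 4.21% and 4.31% in AngII + RvE1 against AngII. Of 31 other ATF4 target and amino acid response genes, 3 were higher in AngII than in Sham and none lower: Phgdh, the first enzyme of serine synthesis, from 11.4 ± 5.33 to 32.1 ± 14.2 FPKM (log2 difference 1.38, adjusted p = 0.0343), Psat1, the next enzyme of that path, from 3.73 ± 1.66 to 11.9 ± 6.62 (1.32, 0.0456), and Eprs, a tRNA synthetase, from 11.8 ± 1.70 to 16.1 ± 0.772 (0.43, 0.0363). Between AngII + RvE1 and AngII, 5 genes of the list were lower and 1 was higher. They include Cebpg, a C/EBP partner of ATF4 (13.4 ± 1.93, 13.95 ± 1.30 and 10.04 ± 0.866 FPKM in Sham, AngII and AngII + RvE1; -0.44, adjusted p = 0.0308), Cth, which makes cysteine (-0.70, 0.0338), and the neutral amino acid transporter Slc1a5 (-0.64, 0.0418). Phgdh was also among the lower genes (-1.13, limma adjusted p = 0.0426) and so was called in both comparisons. The gene that was higher was Nupr1, a stress-induced chromatin protein, at 157 ± 77.5 FPKM in AngII and 385 ± 139 in AngII + RvE1 (1.35, adjusted p = 0.0356). The list median was 0.07 in AngII against Sham and -0.19 in AngII + RvE1 against AngII, beside 0.11 and -0.11 over all genes.

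Of 29 other ER folding and oxidation genes, 1 was lower in AngII than in Sham and 3 were higher in AngII + RvE1 than in AngII. Tmx4, a thioredoxin-related membrane protein, was called in both, at 8.01 ± 1.12 FPKM in Sham, 4.90 ± 0.816 in AngII and 7.29 ± 0.519 in AngII + RvE1 (-0.61, adjusted p = 0.0166, and 0.50, 0.0240). Qsox1, a sulfhydryl oxidase, was at 43.6 ± 25.7, 27.4 ± 9.41 and 71.0 ± 14.9 FPKM (1.37, adjusted p = 0.0435, between AngII + RvE1 and AngII), and Fkbp14, a prolyl isomerase for collagens, at 8.11 ± 2.64, 5.48 ± 1.78 and 9.34 ± 1.22 FPKM (0.71, 0.0465). By their means these 3 genes, like Wfs1, were lowest in AngII, where Herpud1 was highest.

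Of 22 other stress sensors and regulators, Crebrf, which restrains a CREB3 family factor, was higher in AngII than in Sham (0.50, limma adjusted p = 0.0384) and lower in AngII + RvE1 than in AngII (-0.44, 0.0411). Nck1, an adaptor protein that takes part in the control of translation initiation, was lower in AngII + RvE1, at 12.5 ± 2.22 FPKM in Sham, 15.4 ± 2.47 in AngII and 9.09 ± 0.511 in AngII + RvE1 (-0.69, limma adjusted p = 0.0148), and Creb3l2, a membrane-bound factor for secretory genes, was higher (0.92, 0.0465). Of 34 translocation and N-glycosylation genes 1, Srp72 of the signal recognition particle, was higher in AngII than in Sham (0.40, limma adjusted p = 0.0390), and of 24 other degradation genes 1, the ubiquitin-conjugating enzyme gene Ube2j2, was lower in AngII + RvE1 than in AngII (-0.36, 0.0483). Neither list had another call.

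These 19 calls in 16 genes were also sensitive to single libraries. Nck1 kept its call whichever library was left out, and each of the other 18 calls kept it in 3 to 12 of 15 omissions. Leaving out AngII library 3, 4 or 5 ended 16, 17 and 18 of the 19 calls, AngII library 1 ended 4 and AngII library 2 none. All-gene calls also fell without AngII library 3, 4 or 5. In AngII against Sham they went from 298 higher and 102 lower to 90 and 25, 54 and 22, and 62 and 16. In AngII + RvE1 against AngII they went from 531 and 543 to 240 and 151, 303 and 179, and 44 and 54. Leaving out AngII + RvE1 libraries 1 to 5 ended 16, 6, 15, 16 and 15, and Sham libraries 1 to 5 ended 3, 12, 1, 11 and 8. With AngII libraries 3, 4 and 5 left out together none of the 19 was called, where 22 genes of the whole table were called in AngII against Sham and 6 in AngII + RvE1 against AngII. The log2 difference of Phgdh between AngII and Sham fell from 1.38 to 0.66, and that of Psat1 from 1.32 to 0.42, while that of Cebpg between AngII + RvE1 and AngII was -0.50 and that of Nck1 -0.53.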

How the data were processed

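RNA of 15 aorta libraries was measured by RNA sequencing, 5 per group. The table deposited by the authors holds 1 value per gene and library, taken as FPKM although its header names no unit: among genes above 0 in 1 library, the median value fell from 0.0822 at lengths of 300 to 600 bases to 0.0204 at 2500 to 5000. TPM over other genes would rescale each library, which shifts log2(value + 1) less for low values than for high ones. Per the submitters' processing notes the build was mm10; the sources used here name no aligner or counter. Values were transformed as log2(FPKM + 1), so that differences of low genes are understated. limma-trend (limma 3.58.1, R 4.3.3) was fitted to 12603 genes with 1 mean per group; 3 contrasts were tested two-sided with Benjamini-Hochberg adjustment over all genes. The procedure was tested on simulated data. The 35 genes and all lists were chosen with earlier results of these data known. All 35 genes are named, Hspa5, Xbp1, Atf4, Ddit3 and called genes with every library. Other lists give counts and up to 4 called genes per contrast, with Phgdh added in AngII + RvE1 against AngII. The replicate numbers were checked for pairing. Protein sequences were not analysed here. Alternatives run were another pseudocount, no filter, fits of 2 groups at a time, a replicate block, rescaled libraries, array quality weights, and libraries left out.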

Additional observations from a re-analysis of the deposited data

Results flagged for a closer look

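In 2 of 105 groups of 5 values (35 genes in 3 groups), 1 library lay far from the other 4 by Dixon's criterion, where chance gives about 1 in 20, or 5.25 groups. Herpud1 was lowest in AngII library 3, at 49.6 FPKM, with the other AngII libraries between 60.4 and 63.7. Derl3 was highest in AngII library 5, at 15.3 FPKM, with the other AngII libraries between 0.402 and 3.25.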

How the results depend on the processing

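The count of 1 ER stress gene higher in AngII than in Sham became 0 without the filter on low values, with only the groups compared, with the replicate block, with rescaled libraries, and with AngII libraries 3, 4 and 5 or 3 and 5 left out (the second chosen after seeing the data); with array quality weights it was 5 higher (Chac1, Edem2, Herpud1, Trib3, Xbp1) and 1 lower (Wfs1), where all-gene calls rose from 298 to 2104 and from 102 to 717. In AngII + RvE1 against AngII, 1 was higher (Wfs1) and 1 lower (Herpud1) with only the groups compared, 1 higher (Wfs1) with rescaled libraries, and 2 higher (P4hb, Wfs1) and 8 lower with weights. In that order, all-gene calls went from 531 higher and 543 lower to 851 and 489, 819 and 479, and 1502 and 2967. In the weighted fit AngII library 4 had a weight of 6.35 and the other AngII libraries 0.370 to 0.706. With single libraries left out the counts ran from 0 to 2 higher and 0 to 1 lower in AngII against Sham, 0 to 1 higher and 0 to 3 lower in AngII + RvE1 against AngII, and 0 in AngII + RvE1 against Sham. The extremes came without AngII library 1 (2 higher, Edem2 and Herpud1, and 3 lower, Edem2, Syvn1 and Xbp1), AngII library 2 (2 lower), Sham library 3 (Wfs1 and Edem2) and AngII + RvE1 library 2 (Dnajb9). All-gene calls without AngII library 1 were 1155 higher in AngII against Sham and 1173 lower in AngII + RvE1 against AngII. In the latter comparison they were 1314 lower without AngII library 2 and 408 lower without AngII + RvE1 library 2. Without Sham library 3 it had 831 higher and 687 lower, and AngII against Sham had 555 lower. The median log2 difference of the ER stress genes was -0.0237 (AngII 3, 4 and 5 left out) and -0.00862 (3 and 5) in AngII against Sham, and -0.00187 and -0.0422 in AngII + RvE1 against AngII. In the same order, the medians over all genes were 0.0113 and 0.0594, and -0.0032 and -0.0635. The cause of these shifts was not tested; leaving out libraries also leaves fewer samples. For Herpud1 in AngII against Sham the adjusted p ran from 0.00385 to 0.361 over all alternatives. Same-numbered libraries did not deviate together (r from -0.41 to 0.52, median 0.02, 4 of 15 pairs over 0.1), so the numbers are not read as pairs; with the replicate block 72 genes were higher and 37 lower in AngII against Sham. Read depth is unknown, so what it limits cannot be given.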
